A study of Mus musculus with 4 samples.

Results

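Sterol and fatty acid synthesis was followed in tumor-associated macrophages (TAMs) through 30 genes, chosen by symbol as enzymes and regulators under the control of the sterol regulatory element-binding proteins (SREBPs). All 30 were found among the 54146 genes of the count table, and all 30 had enough counts to be tested, as did 14688 genes in all. TAMs had been sorted as live CD11b+F4/80+ cells, after enrichment of CD45+ cells on beads, from MCA205 tumors, a mouse fibrosarcoma line grown under the skin of C57BL/6 mice. The 2 control libraries came from mice without drug, labelled vehicle, and the 2 propranolol libraries from mice that drank propranolol, a blocker of beta-adrenergic receptors, at 0.5 g/L from the day of cancer cell inoculation. All mice were females of 8 to 16 weeks that had received MCA205 cells in the right flank, and no genetic change is given for either group. The study calls its replicates biological but does not state whether a library came from 1 mouse or from pooled mice, so p-values measure the spread between these 4 libraries. Counts assigned to genes totalled 13798249 and 23018142 in control replicates 1 and 2, and 39818103 and 16424081 in propranolol replicates 1 and 2.

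Cells make cholesterol from acetyl-CoA through mevalonate, squalene and lanosterol, and fatty acids from the same precursor. The genes of both routes carry sites for SREBPs, which are held in the endoplasmic reticulum by SCAP and INSIG proteins when sterols are plentiful and are released by cleavage in the Golgi when sterols are low. SREBP-2, from Srebf2, acts mainly on sterol genes and SREBP-1, from Srebf1, mainly on fatty acid genes. In macrophages the route is tied to the handling of lipid taken up from other cells, which is passed on by efflux under the nuclear receptors LXR, themselves activators of Srebf1.

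Sterol and fatty acid genes did not move in one direction in TAMs from propranolol treated mice. Fasn, Mvd, Scap, Srebf1 and Mvk rose and Scd1, Msmo1, Idi1, Hsd17b7 and Stard4 fell, by 1.53 to 2.05 times, while the other 20 genes did not pass the criterion for change. The criterion was a fold change over 1.5 together with an adjusted p under 0.05 in edgeR's quasi-likelihood test (Benjamini-Hochberg adjustment over all 14688 genes). By this rule 10 of the 30 genes (33.3%) changed, beside 27.8% of all tested genes. The 5 that rose (16.7%) stood beside a background of 12.2%, and the 5 that fell (16.7%) beside one of 15.6%, so the shares were near those of all genes. These calls depended on the processing. Once a trend on GC content was removed, 0 members rose and 2 fell, beside 7.65% and 4.99% of all tested genes. Fewer members also fell without control replicate 1 or without propranolol replicate 2, as did fewer of all genes. Without the fold threshold, 8 members were higher and 8 lower at an adjusted p under 0.05, where the background was 21.8% higher and 20.4% lower, or 42.2% in either direction. The fitted log2 fold change was above 0 for 17 of the 30 genes, beside 49% of all tested genes, and its median was 0.13 for the 30 and -0.02 for all. Levels as CPM (counts relative to a library's total, scaled by its TMM factor) were summed over the 30 genes. The sums were 2000 and 2038 in the controls and 2501 and 2376 after propranolol, and Fasn, Acly, Srebf1 and Srebf2 had the largest differences upward. Division by the TMM factors (1.08 and 1.09 in the controls, 0.914 and 0.931 after propranolol) lowers the control sums and raises the others. The sums were not made with library totals alone, so no rise of the set is read from them. With library totals in place of TMM factors the median was -0.10 for the 30 genes and -0.25 for all, 2 members rose and 9 fell, and 609 of all genes rose and 3497 fell, beside 1798 and 2286 with TMM factors.

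On the TMM scale, both propranolol libraries lay above both control libraries in 16 of the 30 genes, and in 10 they lay below. The background was 35.8% and 36.8% of all tested genes. This count depends on the scaling and was not repeated with library totals. With library totals the log2 fold changes of Insig1 (-0.13), Fdps (-0.080), Lss (-0.032) and Acaca (-0.021), which are among the 16, were below 0. The libraries of the groups overlapped for Acat2, Sqle, Insig2 and Lpin1.

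**Figure D1:**
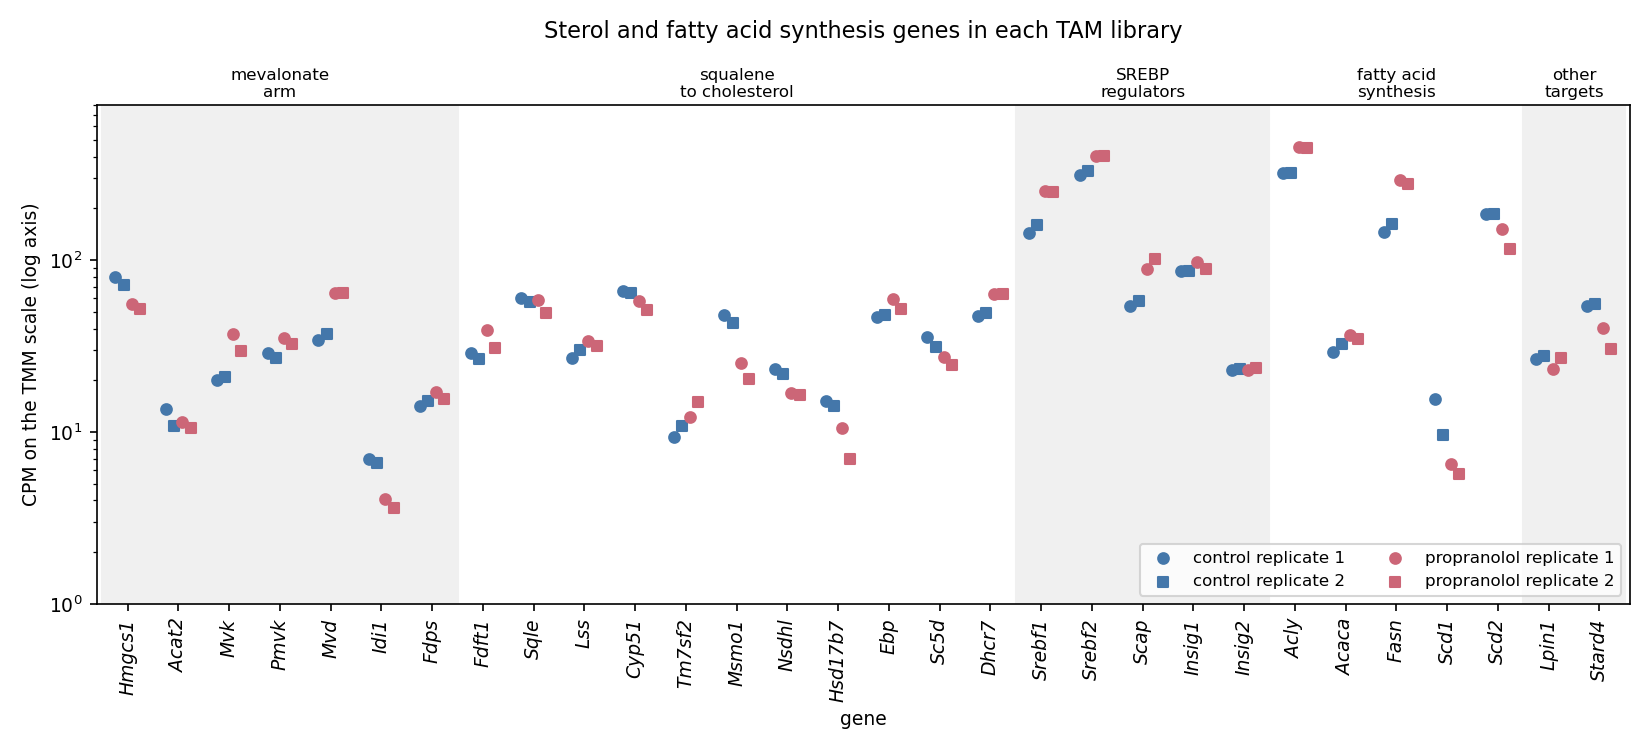
TMM-scaled CPM (log axis) of each of the 30 genes in each of the 4 libraries, ordered by role, with control libraries in blue, propranolol libraries in red, replicate 1 as circles and replicate 2 as squares. The propranolol points of Fasn, near 292 and 278 CPM, stand clear of the control points near 147 and 163, whereas those of Insig2 all lie near 23.

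The sorted cells carried the markers of macrophages. All 10 macrophage markers were tested, led by Lyz2, and their sum was 13661 and 12661 CPM in the controls and 17752 and 16279 CPM after propranolol. Of the 10, 2 were higher, Csf1r and Cd14, beside 12.2% of all tested genes. Once a trend on GC content was removed neither was called and Mrc1 was (log2 0.85), beside 7.65% of all tested genes. Markers of other cells were also present and differed between the groups. Of 10 T and NK cell markers, 9 fell, beside 15.6% of all tested genes, with sums of 291 and 335 CPM in the controls and 138 and 78.0 CPM after propranolol. Of 10 fibroblast and tumor cell markers, 8 fell, beside the same 15.6%. Their sums were 3169 and 1248 CPM in control replicates 1 and 2 and 739 and 780 CPM after propranolol, so the controls were far apart. Of 10 neutrophil markers, 7 were tested and 4 rose, beside 12.2% of all tested genes. Neutrophil sums were 150 and 182 CPM in the controls and 311 and 326 CPM after propranolol. With the GC trend removed, 8 T and NK cell markers and 8 fibroblast and tumor cell markers fell, beside 4.99% of all tested genes. Then 5 neutrophil markers rose, beside 7.65% of all tested genes. Adipocyte markers, of which 1 of 4 was tested, summed to 1.08 and 1.31 CPM in the controls and 0.934 and 0.8503 CPM after propranolol, and those of B cells (2 of 4 tested) and of endothelial cells (4 tested) to at most 20.2 and 57.5 CPM in any library. Per length of all exons (TPM), the most abundant marker was Nkg7 for T and NK cells, Col1a1 for fibroblasts and tumor cells and S100a9 for neutrophils. With the length of the longest transcript, Col3a1 was above Col1a1 in the controls (means of 395 and 277 TPM). No marker was at 0 over a whole group. In bulk samples fewer cells of a type and less RNA per cell cannot be told apart, and the part of these other cells in the differences of sterol and fatty acid genes was not tested.

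The promoters of these genes were read because SREBPs act with the factors NF-Y and Sp1. Of the 30 genes, 24 had at least 1 promoter window in the RefSeq table (GRCm38.p6, 250 bases before to 50 after a start), with 32 windows in all. None was given for Fdps, Fdft1, Sqle, Scd1, Scd2 or Stard4. Motifs were searched on both strands as the sterol regulatory element TCACNCCAC, its looser form TCACNCNAC (which includes the former), the E-box CACGTG, the NF-Y motif CCAAT and the Sp1 motif GGGCGG. TCACNCCAC was present in 1 of the 24 genes, Hmgcs1, and in 1.24% of all 32851 promoters and 1.37% of the 10490 tested genes with a window. TCACNCNAC was present in Hmgcs1 and Nsdhl and in 2.703% of all promoters and 3.37% of tested genes with a window. CACGTG was present in 5 of the 24 genes, Dhcr7, Hsd17b7, Insig1, Sc5d and Scap, and in 7.15% of all promoters and 11.5% of tested genes with a window. CCAAT was present in 20 of the 24 (83.3%), beside 37.4% of all promoters and 42.5% of tested genes with a window. GGGCGG was present in 20 of the 24, beside 35.7% of all promoters and 66.5% of tested genes with a window. Shares of all promoters were per window, whereas a gene was counted when any of its windows held a match. Counted per window, CACGTG was present in 6, CCAAT in 21 and GGGCGG in 24 of the members' 32. Among changed genes with a window, CCAAT was present in 4 of 5 that rose and in 3 of 3 that fell. GGGCGG was present in the same shares, and CACGTG in 1 of 5 and 1 of 3. With so few genes, and CCAAT in 83.3% of the 24, a difference between directions cannot be judged. A match of letters is a description of the sequence and not a binding site.

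Shown here are 200 bases, 5′ to 3′, upstream of the start of Hmgcs1, which holds the sterol regulatory element, of Mvd and Fasn, which rose, and of Hsd17b7, which fell. They were chosen after their values were seen. Each stretch ends upstream of both the RefSeq and the GENCODE start, which for Hsd17b7 leaves out the bases next to the RefSeq start and a CCAAT match in them. Capitals mark matches to the strict sterol regulatory element, the E-box and the NF-Y and Sp1 motifs on either strand, and sequences are from RefSeq on GRCm38.p6.
Hmgcs1, chr13:119690151-119690350 (+ strand): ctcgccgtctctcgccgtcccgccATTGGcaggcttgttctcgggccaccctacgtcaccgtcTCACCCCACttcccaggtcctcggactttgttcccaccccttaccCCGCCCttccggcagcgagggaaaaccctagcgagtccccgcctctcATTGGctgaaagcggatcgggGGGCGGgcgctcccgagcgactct
Mvd, chr8:122443423-122443622 (- strand): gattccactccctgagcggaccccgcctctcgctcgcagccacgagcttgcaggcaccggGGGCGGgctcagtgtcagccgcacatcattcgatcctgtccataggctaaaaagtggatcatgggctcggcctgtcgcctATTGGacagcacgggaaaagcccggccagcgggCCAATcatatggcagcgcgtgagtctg
Fasn, chr11:120824548-120824747 (- strand): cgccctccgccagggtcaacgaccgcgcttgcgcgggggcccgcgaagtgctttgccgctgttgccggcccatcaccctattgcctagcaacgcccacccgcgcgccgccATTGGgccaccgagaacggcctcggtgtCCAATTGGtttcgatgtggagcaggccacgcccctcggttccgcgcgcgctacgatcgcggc
Hsd17b7, chr1:169969242-169969441 (- strand): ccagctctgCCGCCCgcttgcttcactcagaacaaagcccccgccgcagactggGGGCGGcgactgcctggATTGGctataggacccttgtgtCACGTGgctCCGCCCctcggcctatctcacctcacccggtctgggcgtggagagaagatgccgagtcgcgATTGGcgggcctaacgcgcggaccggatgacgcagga
In Hmgcs1 the element TCACCCCAC began 137 bases before the start, between 2 CCAAT matches that read ATTGG on this strand, and 2 GGGCGG matches were present. Mvd had 2 CCAAT matches and 1 GGGCGG match, and Fasn had 3 CCAAT matches, of which a pair overlapped, and 0 of GGGCGG. Hsd17b7 had 1 CACGTG, 2 CCAAT and 3 GGGCGG matches in the stretch shown. Of these letters, CCAAT was common to Mvd and Fasn, which rose, and Hsd17b7, which fell.

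The 5 regulators of the pathway included 2 genes that rose and 0 that fell, beside 12.2% and 15.6% of all tested genes. Their median log2 fold change was 0.33. Once a trend on GC content was removed, 0 of them changed, beside 12.6% of all tested genes. With library totals in place of TMM factors, 0 were called either, as Srebf1 (0.50) and Scap (0.53) were under the fold threshold, Srebf2 was at 0.094, and Insig1 (-0.13) and Insig2 (-0.23) were below 0. Srebf1 (ENSMUSG00000020538.15, GRCm38 chromosome 11, 60199089 to 60222581), the gene of SREBP-1, stood at 144 and 160 CPM in the controls and at 254 and 250 CPM after propranolol, from 2140, 4011, 9246 and 3827 counts. It rose by 0.73 ± 0.10 (log2, SE), or 1.66-fold (adjusted p = 0.000428, edgeR quasi-likelihood test, n = 2 per group). Both propranolol libraries lay well above both controls. The counts are per gene and do not separate the Srebf1 transcripts that encode SREBP-1a and SREBP-1c. Scap (ENSMUSG00000032485.14, chromosome 9, 110333288 to 110384950), the escort that carries SREBPs to the Golgi, was at 53.9 and 57.9 CPM in the controls and at 88.9 and 101 CPM after propranolol, from 800, 1455, 3237 and 1543 counts. Scap rose 1.69-fold (log2 0.76 ± 0.11, adjusted p = 0.000646 in the edgeR test). Of its exon bases, 13.2% are shared with 5830462I19Rik on the opposite strand, and since no strand option is stated for the counting, reads from the 2 genes cannot be told apart there.

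Srebf2, the gene of SREBP-2 and one of the most abundant of the set, was at 311 and 331 CPM in the controls and at 403 and 403 CPM after propranolol, from 4616, 8313, 14671 and 6158 counts. The groups did not overlap and the adjusted p was 0.0168 in the edgeR test, but the difference of 0.33 ± 0.09 on the log2 scale (1.26-fold) was under the fold threshold. Insig1, a retention factor that SREBPs themselves induce, was at 86.8 and 85.9 CPM in the controls and at 97.4 and 88.7 CPM after propranolol, from 1289, 2159, 3544 and 1356 counts (log2 0.11 ± 0.10, adjusted p = 0.427 in the edgeR test). Insig2 was at 22.8 and 23.2 CPM in the controls and at 22.9 and 23.5 CPM after propranolol, from 339, 582, 832 and 359 counts (log2 0.01 ± 0.13, adjusted p = 0.963 in the edgeR test). Neither retention factor passed the test.

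Of the 7 genes of the mevalonate arm, 2 rose and 1 fell (42.9%, beside 27.8% of all tested genes). The median log2 fold change of the arm was 0.16. After removal of a trend on GC content 0 of the 7 changed, beside 12.6% of all tested genes. Mvd (ENSMUSG00000006517.5, chromosome 8, 122433601 to 122443422), the decarboxylase that makes isopentenyl diphosphate, was at 34.3 and 37.2 CPM in the controls and at 64.0 and 64.4 CPM after propranolol, from 509, 936, 2331 and 984 counts. Mvd rose 1.79-fold (log2 0.84 ± 0.11, adjusted p = 0.000419 in the edgeR test). Mvk (ENSMUSG00000041939.14, chromosome 5, 114444269 to 114460591), the mevalonate kinase, was at 19.996 and 21.01 CPM in the controls and at 37.2 and 29.4 CPM after propranolol, from 297, 528, 1355 and 450 counts. Mvk rose 1.63-fold (log2 0.71 ± 0.15, adjusted p = 0.0041 in the edgeR test). For Mvk the propranolol libraries differed from each other, and the log2 difference was under the fold threshold without propranolol replicate 1 (0.52) and with library totals (0.47). Idi1 (ENSMUSG00000058258.14, chromosome 13, 8885501 to 8892451), the isomerase that follows Mvd, went the other way, at 6.93 and 6.64 CPM in the controls and 4.07 and 3.60 CPM after propranolol.

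Idi1 fell by 0.82 ± 0.26 on the log2 scale (adjusted p = 0.0292, edgeR quasi-likelihood test) on 103, 167, 148 and 55 counts, the fewest of the set. Exon bases are shared with another gene for Idi1 (9.22%, Gm48574, opposite strand), Hmgcs1 (12.1%, Gm48342, opposite strand) and Fdps (26.7%, Gm43738, same strand). The call was lost when control replicate 1 (-0.73, adjusted p = 0.0873), propranolol replicate 1 (-0.91, 0.0513) or propranolol replicate 2 (-0.71, 0.116) was left out in edgeR, and in DESeq2 (0.0517). Hmgcs1, the synthase ahead of mevalonate that carries the element printed above, was at 79.8 and 71.4 CPM in the controls and at 55.8 and 51.9 CPM after propranolol. Its log2 difference of -0.49 ± 0.11 had an adjusted p of 0.00643 in the edgeR test but was 1.40-fold, under the threshold. Pmvk (log2 0.29), Fdps (0.16) and Acat2 (-0.14), which encode phosphomevalonate kinase, farnesyl diphosphate synthase and acetoacetyl-CoA thiolase, had adjusted p-values of 0.0869, 0.466 and 0.580 in the edgeR test.

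Among the 11 genes from squalene to cholesterol, 0 rose and 2 fell (18.2%, beside 27.8% of all tested genes). The median log2 fold change of these genes was -0.12, and 0.18 once a trend on GC content was removed. Then 1 of the 11 genes was called, Msmo1, beside 12.6% of all tested genes. Msmo1 (ENSMUSG00000031604.10, chromosome 8, 64718139 to 64733792), a monooxygenase that oxidizes methyl groups of the sterol ring for their removal, was at 47.7 and 43.0 CPM in the controls and at 25.2 and 20.2 CPM after propranolol, from 709, 1080, 917 and 309 counts. Msmo1 fell by 0.99 ± 0.14 on the log2 scale (1.98-fold lower, adjusted p = 0.000591 in the edgeR test). Both propranolol libraries lay far below both controls, and Msmo1 was the only one of the 10 changed genes whose call was kept in all 14 alternative fits tried. Hsd17b7 (ENSMUSG00000026675.12, chromosome 1, 169949535 to 169969241), a reductase of the same demethylation complex, was at 15.2 and 14.1 CPM in the controls and at 10.6 and 6.999 CPM after propranolol, from 226, 354, 385 and 107 counts. It fell by 0.71 ± 0.22 on the log2 scale (adjusted p = 0.0250 in the edgeR test). The propranolol libraries of Hsd17b7 were far apart, and the call was lost in edgeR without control replicate 1 (-0.60, adjusted p = 0.0515) or propranolol replicate 2 (-0.44, 0.145).

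Nsdhl, the dehydrogenase of that complex, was at 23.4 and 21.6 CPM in the controls and at 16.9 and 16.4 CPM after propranolol (log2 -0.43 ± 0.14, adjusted p = 0.0350 in the edgeR test). Nsdhl was under the fold threshold, and its adjusted p was from 0.0632 to 0.272 in edgeR with any 1 library left out and 0.0746 in DESeq2. Dhcr7, the reductase of a last step to cholesterol, differed in the other direction, at 47.6 and 49.3 CPM in the controls and 63.5 and 63.4 CPM after propranolol (log2 0.39 ± 0.11, adjusted p = 0.0156 in the edgeR test, 1.31-fold). For Dhcr7 the adjusted p in edgeR was 0.180 once the GC trend was removed (0.20) and 0.267 with library totals (0.15). Sqle, the epoxidase that is a control point of the route, was at 60.5 and 57.4 CPM in the controls and at 58.9 and 49.3 CPM after propranolol (log2 -0.12 ± 0.12, adjusted p = 0.463 in the edgeR test), and its groups overlapped. The remaining 6 genes of this segment, Fdft1, Lss, Cyp51, Tm7sf2, Ebp and Sc5d, lay between -0.36 (Sc5d) and 0.41 (Tm7sf2) on the log2 scale, with adjusted p-values from 0.0568 to 0.235 in the edgeR test. Of the exon bases of Fdft1, 18.3% are shared with Ctsb on the opposite strand, and of those of Tm7sf2, 12.1% with Vps51 on the same strand, so reads there cannot be told apart.

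Of the 5 genes of fatty acid synthesis, 1 rose (Fasn) and 1 fell (Scd1), beside 12.2% and 15.6% of all tested genes, and the median log2 fold change was 0.21. Fasn (ENSMUSG00000025153.9, chromosome 11, 120805846 to 120824547), the fatty acid synthase, was at 147 and 163 CPM in the controls and at 292 and 278 CPM after propranolol, from 2178, 4086, 10640 and 4243 counts. Fasn rose 1.84-fold (log2 0.88 ± 0.10, adjusted p = 0.000204 in the edgeR test), the largest rise of the 30 genes. Acly, which supplies cytosolic acetyl-CoA from citrate, was at 319 and 323 CPM in the controls and at 453 and 448 CPM after propranolol (log2 0.49 ± 0.09, adjusted p = 0.0020 in the edgeR test), a difference of 1.40-fold that was under the threshold. Acaca, the acetyl-CoA carboxylase between them, was at 29.4 and 32.5 CPM in the controls and at 36.9 and 34.9 CPM after propranolol (log2 0.21 ± 0.12, adjusted p = 0.195 in the edgeR test). Of the 3 genes of chain synthesis only Fasn passed the criterion, which it did not once the GC trend was removed (log2 0.54), and Acaca was at -0.021 with library totals in place of TMM factors.

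Scd1 (ENSMUSG00000037071.2, chromosome 19, 44394455 to 44407879), a desaturase that makes oleate and palmitoleate, was at 15.6 and 9.67 CPM in the controls and at 6.48 and 5.69 CPM after propranolol, from 232, 243, 236 and 87 counts. Scd1 fell by 1.03 ± 0.26 on the log2 scale (2.05-fold lower, adjusted p = 0.00929 in the edgeR test). Its level was highest in control replicate 1, and without that library the log2 difference was -0.60 with an adjusted p of 0.0938 in the edgeR test. Control replicate 1 also had the highest sum of 10 fibroblast and tumor cell markers, 3169 CPM beside 1248 CPM in control replicate 2 and 739 and 780 CPM after propranolol. The part of those markers in the Scd1 difference was not tested. Scd2, the more abundant desaturase, was at 185 and 185 CPM in the controls and at 152 and 117 CPM after propranolol (log2 -0.46 ± 0.13, adjusted p = 0.0146 in the edgeR test, 1.38-fold). The controls of Scd2 were alike and the propranolol libraries apart, and Scd2 passed the criterion without propranolol replicate 1 (-0.66) or with library totals (-0.70), and had an adjusted p of 0.101 in edgeR without propranolol replicate 2 (-0.26).

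On a scale that also divides by exon length (TPM), Scd2 stood at 111, 114, 76.6 and 61.3 in control replicates 1 and 2 and propranolol replicates 1 and 2, and Scd1 at 10.5, 6.67, 3.66 and 3.34, so Scd2 was the more abundant in each library. On the same scale Srebf2 had the highest level of the regulators, at 142, 155, 155 and 161 TPM, and Srebf1 stood at 83.8, 95.6, 125 and 128 TPM. Insig1 stood at 92.0, 93.7, 87.0 and 82.4 TPM and Insig2 at 21.5, 22.5, 18.2 and 19.4 TPM. Srebf1 and Insig1 were close in the controls, and Srebf1 was above Insig1 in both propranolol libraries. Scap, in turn, was at 23.7, 26.2, 33.0 and 39.0 TPM, above Insig2 in each library. Among the enzymes that rose, Mvd was at 60.4, 67.6, 95.2 and 99.5 TPM, Fasn at 43.9, 50.1, 73.8 and 72.9 TPM and Mvk at 24.5, 26.5, 38.4 and 31.6 TPM. Among those that fell, Msmo1 was at 25.5, 23.6, 11.3 and 9.46 TPM, Hsd17b7 at 9.77, 9.31, 5.72 and 3.94 TPM and Idi1 at 6.49, 6.40, 3.20 and 2.95 TPM. Msmo1 was near Mvk in the controls and below it after propranolol. These levels depend on the length used, since 42 of 60 group means over the 30 genes moved by more than 1 SD when the longest transcript replaced all exons, that of Msmo1 in the controls to 39.4 TPM and that of Mvk to 22.3 TPM. Stard4 was at 31.6, 33.6, 20.1 and 15.7 TPM and Lpin1 at 9.04, 9.63, 6.64 and 8.02 TPM. Values in TPM are shares of a total, so they can differ from CPM in the size and the sign of a difference between groups, as for both Insig genes.

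Stard4 (ENSMUSG00000024378.9, chromosome 18, 33199355 to 33213862), a sterol carrier protein, and Lpin1, a phosphatidate phosphatase that also acts on SREBPs in the nucleus, completed the set. Stard4 was at 53.9 and 55.6 CPM in the controls and at 40.6 and 30.5 CPM after propranolol, from 801, 1397, 1476 and 466 counts, and it fell by 0.62 ± 0.14 on the log2 scale (1.53-fold lower, adjusted p = 0.00696 in the edgeR test). This difference was near the fold threshold of 1.5 and went under it without control replicate 1 (-0.58), control replicate 2 (-0.58) or propranolol replicate 2 (-0.40). Once the GC trend was removed, the difference was -0.15 (adjusted p = 0.434 in edgeR). Lpin1 was at 26.7 and 27.6 CPM in the controls and at 23.2 and 26.9 CPM after propranolol, from 396, 693, 845 and 412 counts (log2 -0.12 ± 0.14, adjusted p = 0.509 in the edgeR test), and the groups overlapped.

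**Figure D2:**
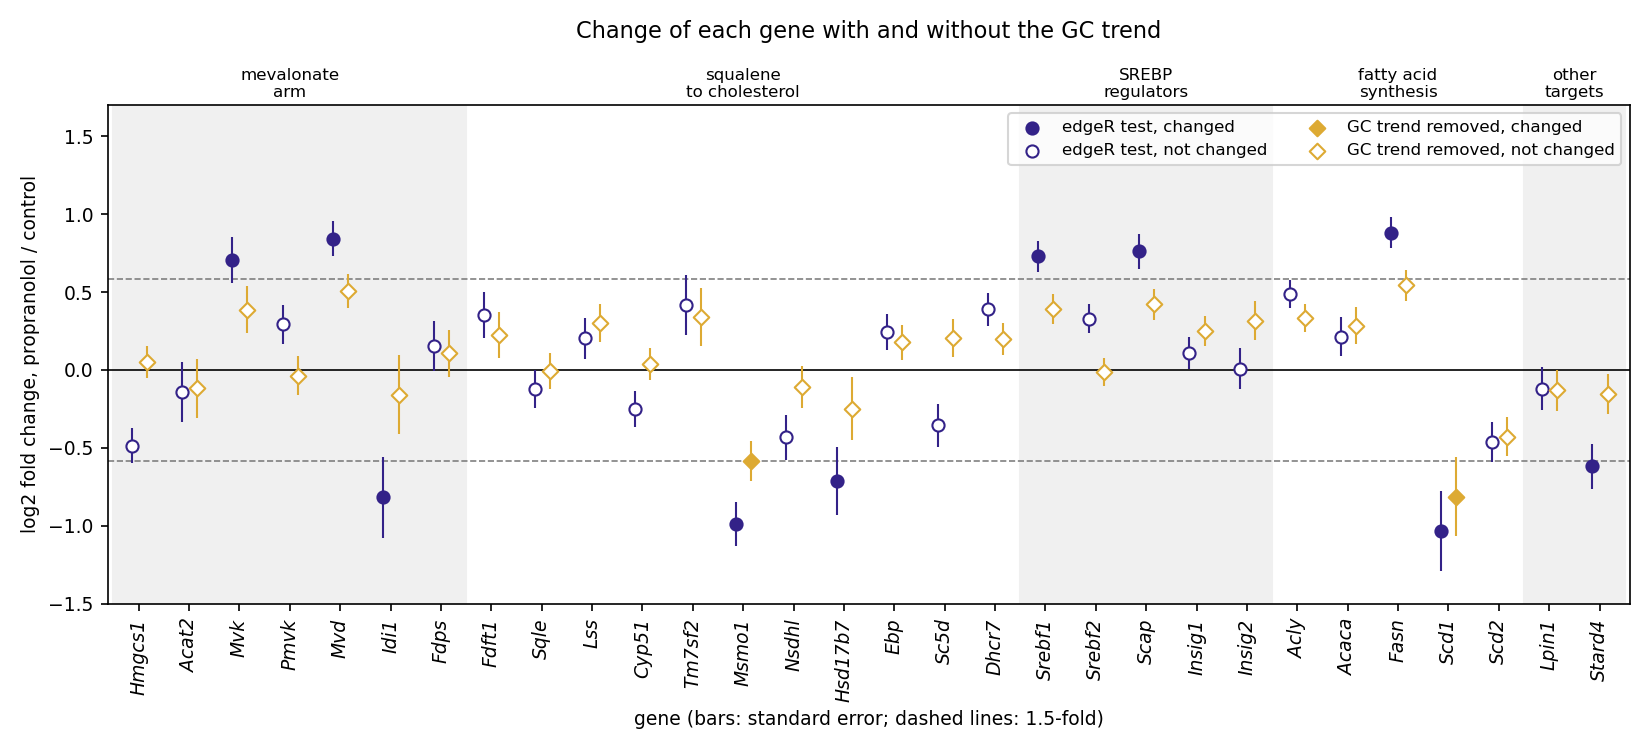
Log2 fold change of propranolol against control TAMs (y axis) for the 30 genes by role (x axis), from the edgeR fit (circles) and after removal of a GC trend (diamonds), with SE bars, filled symbols for changed genes and dashed lines at 1.5-fold. Fasn has the highest value (0.88) and Scd1 the lowest (-1.03), and after the GC trend was removed most points lie nearer to 0.

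Log2 fold changes of the set climbed with base composition. The GC content of the longest transcript ran from 41.9% to 59.1% over the 30 genes, around a median of 49.6% for all genes. Of the 15 members above that median, 13 had log2 fold changes above 0 (all but Acat2 and Lpin1), 5 rose and 0 fell, while of all tested genes above it 73.6% were above 0, 22% rose and 4.22% fell. Of the 15 at or below it, 4 were above 0 (Lss, Insig1, Insig2 and Acaca), 0 rose and 5 fell, while of all tested genes there 24.4% were above 0, 2.52% rose and 26.9% fell. Across the 30 genes Spearman's rho between log2 fold change and GC content was 0.894 (Pearson's r 0.862), and across 14681 tested genes rho was 0.577. Over the same 30 genes rho was still 0.589 after the removal of a GC trend from each library. Genes share the same 4 libraries and are not independent replicates, so no p is given. Mvd (59.0% GC), Scap (59.1%), Srebf1 (58.4%), Fasn (57.9%) and Mvk (56.3%) were all GC-rich, and Idi1 (41.9%), Hsd17b7 (43.9%), Stard4 (43.9%), Msmo1 (44.7%) and Scd1 (47.1%) all lower.

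**Figure D3:**
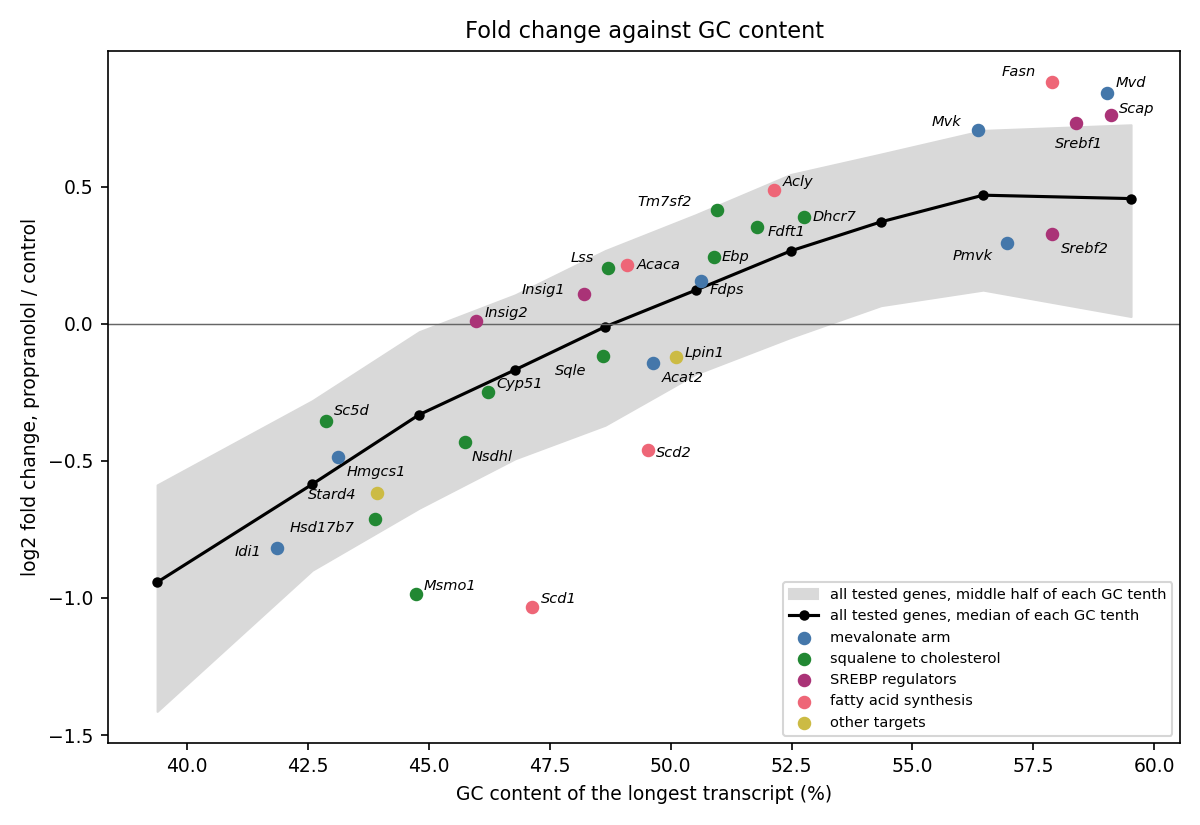
Log2 fold change against GC content of the longest transcript (%) for the 30 genes (points colored by role), over the median (line) and the span between quartiles (gray band) of all tested genes in 10 groups of equal size by GC content. The medians of all genes climb from -0.94 in the group of lowest GC content to 0.46 in that of the highest, and the members climb with them.

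Most genes of the set lay within the range of other genes of like GC content. In 10 groups of equal size by GC content, 20 of the 30 genes were between the quartiles of all tested genes of their group. By the definition of quartiles, as many of all tested genes lie outside them as between them. Mvk, Mvd, Tm7sf2, Srebf1, Scap and Fasn were above the upper quartile, and Msmo1, Hsd17b7, Scd1 and Scd2 below the lower. Mvk (0.706, quartile 0.705), Srebf1 (0.730, quartile 0.725) and Tm7sf2 (0.414, quartile 0.398) were only just above it. When a smooth trend on GC content was removed from each library, 12.6% of all genes changed, 7.65% higher and 4.99% lower, and of the 30 genes 0 rose and 2 fell. Then 18 of the 30 genes had log2 fold changes above 0, beside 57.9% of all genes. The 2 that fell were Msmo1 (log2 -0.59 ± 0.13, adjusted p = 0.0109 in edgeR), which was only just past the fold threshold, and Scd1 (-0.81 ± 0.25, adjusted p = 0.0431 in edgeR).

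The 5 genes that rose kept their sign with a smaller difference after that correction. Fasn was at 0.54 ± 0.10 (adjusted p = 0.00528 in edgeR), Mvd at 0.51 ± 0.11 (0.00949), Scap at 0.42 ± 0.10 (0.0146) and Srebf1 at 0.39 ± 0.10 (0.018), each under the fold threshold, and Mvk was at 0.39 ± 0.15 (0.0951). Idi1 (-0.16), Hsd17b7 (-0.25) and Stard4 (-0.15) had adjusted p-values of 0.695, 0.418 and 0.434. Srebf2, which differed by 0.33 before, was at -0.01 ± 0.09 (adjusted p = 0.944 in edgeR), and Hmgcs1, which differed by -0.49 before, at 0.05 ± 0.10 (0.754). Whether GC content reflects the libraries or the cells was not tested.

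Genes that act beside the set were taken from 3 further lists of symbols. Among 20 other genes of lipid synthesis, 19 were tested, 2 rose and 2 fell (21.1%, beside 27.8% of all tested genes), with a median log2 fold change of 0.17. Aacs (0.68), which activates acetoacetate for lipid synthesis, and Elovl1 (0.74), an elongase of long fatty acids, rose. Ggps1, which makes geranylgeranyl diphosphate from the farnesyl diphosphate of this route, was at 21.3 and 18.1 CPM in the controls and at 7.31 and 6.48 CPM after propranolol and fell by 1.504 ± 0.18 (log2). Acsl4 (-1.23), which activates arachidonate, also fell. Fads1, a desaturase and the most abundant of the list per length, had a log2 fold change of 0.09 (adjusted p = 0.517 in edgeR). Of these 4 changed genes, only Ggps1 (-0.65) was past the criterion after the GC trend was removed.

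Among 18 genes that process or degrade SREBPs and their partners, 1 rose and 1 fell (11.1%, beside 27.8% of all genes), with a median log2 fold change of 0.02. Sec24c (log2 0.59), a coat subunit of the vesicles that carry SCAP, rose, and Mbtps2 (log2 -0.88), the protease that makes the last cut of SREBPs, fell. After the GC trend was removed neither passed, Mbtps2 being at -0.01, and Sec23b (log2 1.29), also a coat subunit and named after its value was seen, did.

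Among 16 genes of sterol efflux and storage, 5 rose and 2 fell (43.8%, beside 27.8% of all genes), with a median of 0.33. Ch25h, which makes the oxysterol 25-hydroxycholesterol, was at 117 and 154 CPM in the controls and at 251 and 239 CPM after propranolol and rose by 0.85 ± 0.13 (log2). Stard3 (0.92), a sterol transporter of late endosomes, Gramd1b (0.63), a carrier of sterol from the plasma membrane, and the LXR genes Nr1h2 (0.89) and Nr1h3 (0.59) also rose. Soat1 (-0.65), which esterifies cholesterol for storage, and Osbpl8 (-0.80), a lipid exchanger of the endoplasmic reticulum, fell. After the GC trend was removed, Ch25h (0.85) and Stard3 (0.61) were still past the criterion and the other 5 were not. Npc2, a lysosomal sterol carrier and the most abundant of the list per length in the controls, was at 969 and 905 CPM there and at 1016 and 864 CPM after propranolol. Per length, Ch25h was above Npc2 in propranolol replicate 2 (496 beside 457 TPM) and below it in propranolol replicate 1 (499 beside 516 TPM).

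**Figure D4:**
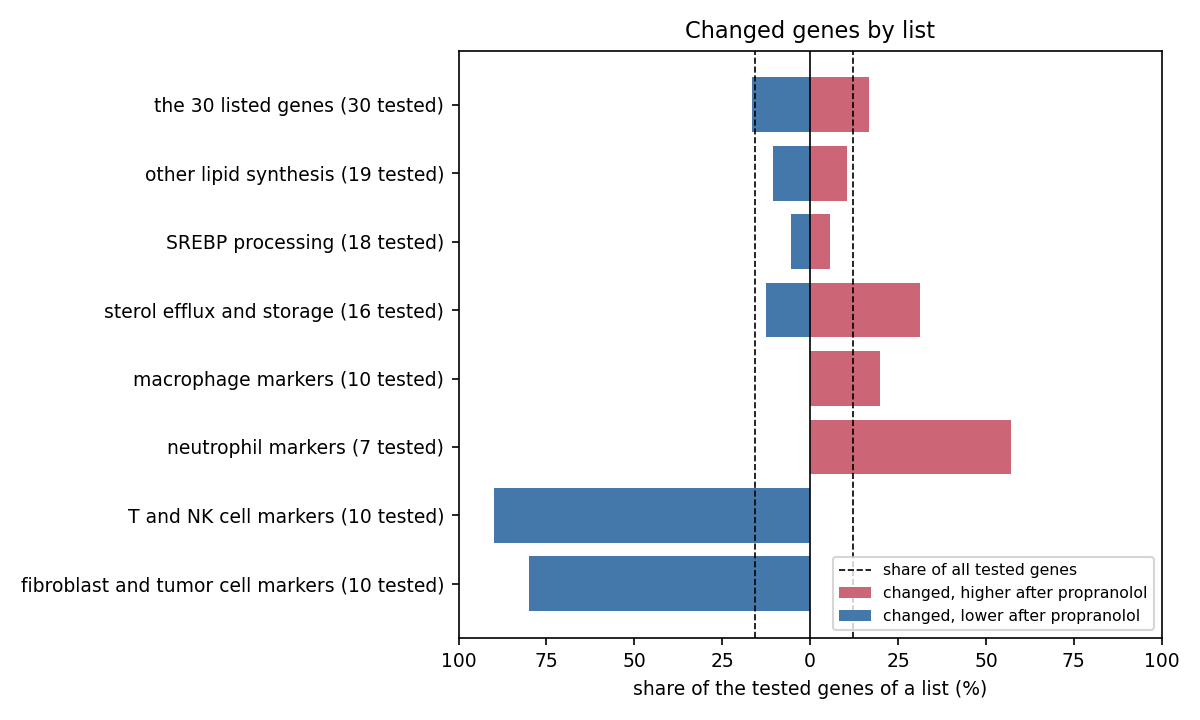
Share of tested genes (%, x axis) that rose (bars to the right) or fell (to the left) after propranolol among the 30 genes, the 3 neighbouring lists and the markers of 4 cell types, with dashed lines for all 14688 tested genes (12.2% higher, 15.6% lower). Sterol efflux and storage has the largest share of genes that rose among the 3 neighbouring lists (5 of 16).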

How the data were processed

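RNA sequencing counts of FACS-sorted TAMs from 4 libraries, 2 from control and 2 from propranolol treated mice, were analyzed. The deposited values are gene counts, which the authors made, per the labels and methods, by aligning to mm10 with STAR 2.7.1a, filtering with SAMtools 1.9 and counting exons with featureCounts 1.6.4. The annotation release and the strand option are not given in the sources used here. Groups were those of the labels.

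The 30 genes and all lists were chosen with earlier results of these data known. Named genes were all 30 members and, from each neighbouring list, the changed genes and the most abundant, except for an item that is not reported here. Identifiers were matched to GENCODE M21 on GRCm38, which paired 54079 of 54146 genes. edgeR 4.0.16 (R 4.3.3) was run on genes passing its filter (minimum count 10), with TMM factors (1.08, 1.09, 0.914 and 0.931), a quasi-likelihood test and Benjamini-Hochberg adjustment. Each SE is the coefficient divided by the square root of its F statistic. CPM used TMM-scaled totals, and TPM the exon length of a gene. The GC correction removed a natural spline with 5 degrees of freedom. Alternatives used DESeq2 1.42.0, limma 3.58.1 (voom), other scalings and filters, the replicate number as a block, and leaving out each library. A library left alone in its group took its spread from the other group. The tests were checked on simulated data. Exact permutation of 2 against 2 libraries cannot give a p below 0.333. Depth limits the precision of low genes such as Idi1.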

Additional observations from a re-analysis of the deposited data

How the results depend on the processing

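Fitted values of the 30 genes under 14 alternatives numbered 420, of which 364 kept their direction and side of the criterion, 32 lost the call, 5 gained it and 19 reversed. With library totals in place of TMM factors, which moved the median of all genes from -0.02 to -0.25 on the log2 scale, 2 members rose and 9 fell (609 and 3497 of all genes) and the members' median was -0.10. Log2 fold changes then reversed for Insig2 (-0.23), Insig1 (-0.13), Fdps (-0.080), Lss (-0.032) and Acaca (-0.021). Insig2 also reversed with upper-quartile scaling (-0.050) and a stricter filter (-0.013). Without a filter on low counts 3 members fell, as Idi1 (-0.74, adjusted p = 0.0566 in edgeR) and Stard4 (-0.54) left the criterion. With the GC correction, which moved the median of all genes to 0.09, 0 members rose and 2 fell (1123 and 733 of all genes), and with the replicate block as well 0 and 2 (1183 and 947). These fits reversed Pmvk (-0.037 and -0.045), Cyp51 (0.039 and 0.035), Sc5d (0.21 and 0.20), Hmgcs1 (0.052 and 0.051) and Srebf2 (-0.012 and -0.012). At any fold, 8 members were higher and 8 lower (3205 and 2999 of all genes), and at a log2 fold change above 1.5, 0 and 0 (61 and 667).

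Leaving out 1 library gave 4 to 5 members that rose and 1 to 5 that fell (1 without control replicate 1, 2 without propranolol replicate 2), with 1837 to 2119 of all genes higher and 1664 to 2305 lower (1664 without control replicate 1, 1778 without propranolol replicate 2), and reversed Sqle (0.030 without propranolol replicate 2) and Acat2 (from -0.29 without control replicate 2 to 0.077 without control replicate 1). The groups share replicate numbers, but no label says what a number marks, and the deviations of same-numbered libraries correlated at 0.169 over genes. The fit with the replicate block called 5 members higher, 5 lower and 4362 genes in all, against 4084 without the block.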
